A study of Mus musculus with 36 samples.

Results

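The genes described here encode the subunits of voltage-gated calcium and sodium channels. They were taken from an array data set of mouse brain by name: every gene with a probe set of 1 symbol whose symbol begins with Cacna, Cacnb or Cacng and a number, or has the form Scn, a number and a or b. This gave 35 of the 18193 genes covered. They were 9 calcium channel alpha1 genes, 4 alpha2delta genes, 3 beta genes and 8 gamma genes, with 8 sodium channel alpha genes and 3 sodium channel beta genes. The 35 genes were read by 85 probe sets, 26 of them by more than 1, and each gene is represented by the 1 probe set whose mean over the 36 arrays was highest.

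Messenger RNA was measured on 36 single-colour Affymetrix mouse arrays, where each gene is read through sets of short probes and given as a log2 signal. The mice were male C57B1/6J animals of 20 to 26 g, with no age given, and had gone through conditioned place preference, in which a drug is paired with 1 compartment of a box. From day 3 to day 10 all mice, controls included, received saline on every other day, and on the alternate days either modafinil at 65 mg per kg, a drug given to keep patients awake and an inhibitor of dopamine reuptake, or saline again, called vehicle here. Brains were taken on day 11, 24 h after the last dose, and 1 mm punches were cut from slices of 100 µm. There were 5 vehicle and 5 modafinil arrays of the ventral tegmental area (VTA), where the dopamine neurons of the reward pathway lie, 5 and 5 of the nucleus accumbens (NAC), their striatal target, and 8 and 8 of the prefrontal cortex (PFC). Each VTA and NAC brain sample gave 2 pieces, whose RNA was combined before labelling except where an integrity number fell below 7. The labels do not say that the arrays of a group came from separate mice, so each p-value reflects the spread among these arrays, which may be technical, and the number of arrays limits the precision.

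A voltage-gated calcium channel is built around a pore-forming alpha1 subunit, which decides the current type, with a cytoplasmic beta subunit and an extracellular alpha2delta subunit that bring the pore to the membrane and tune its gating. Most brain gamma subunits are better known as auxiliary proteins of AMPA-type glutamate receptors. Sodium channel alpha subunits form the pore that carries the upstroke of the action potential, and their beta subunits are single-pass membrane proteins that modify its gating and act in cell adhesion. In dopamine neurons calcium entry contributes to autonomous pacemaking, and in striatal projection neurons sodium and calcium currents shape the response to cortical input.

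Many of the genes lie beside one another in the genome. In the order of protein-coding genes of the RefSeq annotation of GRCm38.p6, Scn3a and Scn2a were neighbours on chromosome 2, and so were Scn1a, Scn9a and Scn7a, with 3 coding genes between Scn2a and Scn1a. Cacng1, Cacng4 and Cacng5 were neighbours on chromosome 11, Cacng7, Cacng8 and Cacng6 on chromosome 7, and Scn2b and Scn4b, as well as Scn10a and Scn11a, on chromosome 9. The promoter windows of 2 pairs are shown because the results of their members were unlike: Scn2b and Scn4b, neighbours whose regional differences were of unlike size, and Cacna2d2 and Cacna2d3, whose modafinil minus vehicle differences in VTA had opposite signs. Each window runs 5′ to 3′ on the gene's strand from 250 bases before to 50 bases after the annotated start, from RefSeq with build GRCm38.p6. Capitals mark GGGCGG (a GC box) and CCAAT on either strand. The windows are chr9:45117626-45117925 on the plus strand for Scn2b, chr9:45138374-45138673 on the plus strand for Scn4b, chr9:107399630-107399929 on the plus strand for Cacna2d2 and chr14:29721815-29722114 on the minus strand for Cacna2d3.
Scn2b: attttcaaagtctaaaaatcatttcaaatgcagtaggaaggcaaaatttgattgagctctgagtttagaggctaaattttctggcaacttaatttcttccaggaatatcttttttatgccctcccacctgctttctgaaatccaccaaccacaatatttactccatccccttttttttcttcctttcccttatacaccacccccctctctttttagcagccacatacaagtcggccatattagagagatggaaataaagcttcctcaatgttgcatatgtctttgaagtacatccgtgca
Scn4b: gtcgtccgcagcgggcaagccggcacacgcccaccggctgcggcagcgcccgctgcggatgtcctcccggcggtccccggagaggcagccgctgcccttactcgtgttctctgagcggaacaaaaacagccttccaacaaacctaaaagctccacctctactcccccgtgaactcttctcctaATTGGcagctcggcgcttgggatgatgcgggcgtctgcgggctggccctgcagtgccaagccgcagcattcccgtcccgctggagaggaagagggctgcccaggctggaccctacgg
Cacna2d2: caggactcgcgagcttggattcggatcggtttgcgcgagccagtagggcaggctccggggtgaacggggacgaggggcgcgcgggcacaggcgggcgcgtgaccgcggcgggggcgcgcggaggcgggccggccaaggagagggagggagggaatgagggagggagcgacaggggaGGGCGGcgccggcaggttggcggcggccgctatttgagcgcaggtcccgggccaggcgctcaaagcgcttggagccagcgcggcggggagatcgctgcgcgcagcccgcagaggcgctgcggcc
Cacna2d3: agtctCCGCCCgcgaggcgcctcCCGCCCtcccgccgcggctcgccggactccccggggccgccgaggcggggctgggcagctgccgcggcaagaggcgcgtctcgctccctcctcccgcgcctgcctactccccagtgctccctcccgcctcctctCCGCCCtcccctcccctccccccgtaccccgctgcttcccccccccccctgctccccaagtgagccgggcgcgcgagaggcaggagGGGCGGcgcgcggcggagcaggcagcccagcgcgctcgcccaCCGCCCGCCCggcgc

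The Scn2b window held 2 CpG dinucleotides and 38.3% G and C, and the Scn4b window 26 and 66.3%. Those of Cacna2d2 and Cacna2d3 held 43 and 41 CpG dinucleotides and 75.7% and 81.3% G and C, against a median of 7 CpG dinucleotides over the 32851 windows of all genes. The Cacna2d3 window had 6 matches of GGGCGG, of which the last 2 overlap, Cacna2d2 had 1 and Scn4b had 1 match of the CCAAT motif. For comparison, GGGCGG was present in 35.7% of all windows and in 14 of the 37 windows of 27 matched channel genes (37.8%), and CCAAT in 37.4% and in 9 of 37 (24.3%). These matches are descriptions of the letters and not of binding.

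Marker genes separated VTA and NAC arrays in the direction of their labels. The mean of the dopamine neuron markers was 8.44 to 10.07 in vehicle VTA arrays and 6.45 to 6.64 in vehicle NAC arrays, and that of the striatal neuron markers 8.11 to 8.41 and 10.81 to 11.85. The PFC values were on a scale of their own, with array medians of about 7.23 against 6.79 in vehicle VTA and 6.85 in vehicle NAC, so levels in PFC are described without a test. A few arrays stood apart. Vehicle NAC array 2 had the highest cortical excitatory neuron markers of the vehicle NAC arrays (9.21 against 7.16 to 8.41) and the lowest striatal markers (10.81). Vehicle NAC array 1 had the lowest oligodendrocyte and astrocyte markers of its group (10.02 and 9.94). Vehicle PFC array 4 had the highest astrocyte markers (11.42), and modafinil PFC array 3 had striatal markers at 10.75, with the other 7 at or below 9.14. Several results below are given without 1 or more of these 4 arrays as well. The 4 were chosen after seeing the data. Vehicle NAC array 5 and modafinil NAC array 2 also lay apart in cortical markers, at 7.16 and 6.83 (next lowest 8.34 and 8.48), but are not among the 4.

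Every comparison used limma on 27022 probe sets, those not below the 40th percentile of the mean signal, and a gene is said to be higher or lower only where its p-value, adjusted by the Benjamini-Hochberg method over all of them, was below 0.05. Of the 35 genes 27 were tested in every comparison and 3 (Cacna2d4, Scn7a and Scn9a) in some. Cacna1s, the skeletal muscle calcium channel pore, Cacng1, the skeletal muscle gamma subunit, Cacng6, and Scn10a and Scn11a, the sodium channel pores of pain-sensing neurons, were below the filter in all of them.

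In vehicle mice the share of channel genes called between NAC and VTA was near that of all tested probe sets. Most of the calls were higher in NAC. Of 28 tested, 14 were higher and 3 lower in NAC (60.7%), where 56.5% of all tested probe sets were called, 28.7% higher and 27.8% lower. An unadjusted p below 0.05 was reached by 18 channel genes and by 61.2% of all. The median difference was 0.25 over the channel genes and 0.007 over all tested probe sets. The 3 sodium channel beta genes and 2 of 3 calcium channel beta genes were higher, as were 4 of 8 alpha1, 2 of 3 alpha2delta, 2 of 6 gamma and 1 of 5 sodium alpha genes. Lower were 1 alpha1 gene (Cacna1g), 1 alpha2delta gene (Cacna2d2) and 1 sodium alpha gene (Scn1a). The arrays of the 2 regions did not overlap for 10 of the 28 tested genes (35.7%), against 41.4% of all tested probe sets, and for 3 genes below the filter. Without vehicle NAC arrays 1 and 2, 13 were higher and 3 lower.

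Among the pore-forming calcium channel genes, Cacna1e, which encodes the R-type pore, read 9.58, 9.10, 9.44, 10.18 and 9.39 in vehicle VTA and 10.46, 10.58, 10.72, 10.77 and 10.87 in vehicle NAC. The groups did not overlap, and the difference was 1.14 (SE 0.16, 2.20-fold, adjusted p = 0.000101). Cacna1h, a T-type pore that opens near the resting potential, read 7.91, 8.37, 8.03, 7.75 and 8.10 in VTA and 9.06, 8.48, 8.94, 8.94 and 9.35 in NAC, again with no overlap (0.92, SE 0.15, adjusted p = 0.000258). The other T-type pore in the set, Cacna1g, ran the other way: 8.56, 8.29, 8.59, 8.62 and 8.86 in VTA and 7.25, 8.38, 7.36, 7.21 and 7.05 in NAC. It was lower in NAC by a log2 difference of −1.13 (SE 0.21, adjusted p = 0.00075), and its groups overlapped through NAC array 2 alone. Without NAC arrays 1 and 2 the difference was −1.38. A second probe set of Cacna1h, below the filter, gave −0.02 (SE 0.098), so the probe sets of Cacna1h disagree.

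The L-type pores Cacna1c and Cacna1d, which carry long-lasting calcium currents and couple activity to transcription, were higher in NAC by 0.52 (SE 0.11, adjusted p = 0.00154) and 0.40 (SE 0.11, adjusted p = 0.00662). Cacna1c read 7.73 to 8.33 in VTA and 8.40 to 8.74 in NAC, without overlap. With the probe sets used, the presynaptic pores that trigger transmitter release did not pass the test. The differences were 0.20 (SE 0.083, adjusted p = 0.0532) for Cacna1a, the P/Q-type pore, and 0.04 (SE 0.094, adjusted p = 0.77) for Cacna1b, the N-type pore. Cacna1f, the L-type pore best known from the retina, differed by 0.02 (SE 0.073). The Cacna1b probe set is of a kind that can also bind similar transcripts, as are those used for Cacna1d and Scn9a. Of the 4 tested Cacna1b probe sets 2 were past the threshold and higher in NAC. They gave 0.22 (adjusted p = 0.0359) and 0.26 (adjusted p = 0.0107), while another gave 0.02 (adjusted p = 0.826), so the probe sets of Cacna1b disagree.

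The auxiliary calcium channel genes showed some of the most separate groups. Cacna2d3, an alpha2delta subunit gene, read 9.09, 8.90, 9.14, 9.03 and 9.39 in vehicle VTA and 10.59, 10.06, 10.91, 11.05 and 11.35 in vehicle NAC. All NAC arrays lay above all VTA arrays, with a difference of 1.68 (SE 0.20, 3.21-fold, adjusted p = 1.94e-05). Cacna2d1, whose protein binds gabapentin, was higher in NAC by 0.38 (SE 0.14, adjusted p = 0.0343). Cacna2d2, whose protein also binds gabapentin, was lower by a log2 difference of −0.34 (SE 0.11, adjusted p = 0.0222), with overlapping groups, and its adjusted p was 0.0517 without vehicle VTA array 1 and 0.0537 without array 2. The other probe sets of Cacna2d2, below the filter, gave −0.46 and 0.42 and so disagree in sign.

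Cacnb1, a beta subunit gene, was almost constant within a region, at 7.46, 7.53, 7.52, 7.49 and 7.49 in VTA and 8.70, 8.83, 8.70, 8.83 and 8.96 in NAC. Its difference of 1.30 (SE 0.061, adjusted p = 1.43e-08) had the smallest p of the set, and 3 further probe sets of the gene gave 0.67, 1.78 and 1.05, the latter 2 below the filter. Cacnb4, the beta subunit gene mutated in the lethargic mouse, was higher by 0.89 (SE 0.085, adjusted p = 3.83e-06), and its 2 other probe sets gave 0.87 and 0.97. Cacnb2 differed by 0.08 (SE 0.096, adjusted p = 0.511).

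Of the gamma genes, Cacng3 and Cacng8 encode AMPA receptor auxiliary subunits. Cacng3 read 6.53, 6.46, 6.29, 6.14 and 6.61 in VTA and 7.85, 7.83, 8.04, 8.15 and 8.37 in NAC, a difference of 1.64 (SE 0.12, 3.12-fold, adjusted p = 3.53e-07). Cacng8 was higher by 0.78 (SE 0.086, adjusted p = 1.13e-05), but its second tested probe set was lower by −0.22 (adjusted p = 0.0309). Probe sets also disagreed for Cacng2, the stargazin gene, at −0.01 for the one used and −0.73 and 0.14 for the others, and for Cacng4, at −0.03 and 0.53. Those were the 3 of 16 genes with several tested probe sets whose signs differed. The muscle gene Cacng1 lay below the filter, at 3.88 to 4.07 in VTA and 5.36 to 5.75 in NAC.

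**Figure D1:**
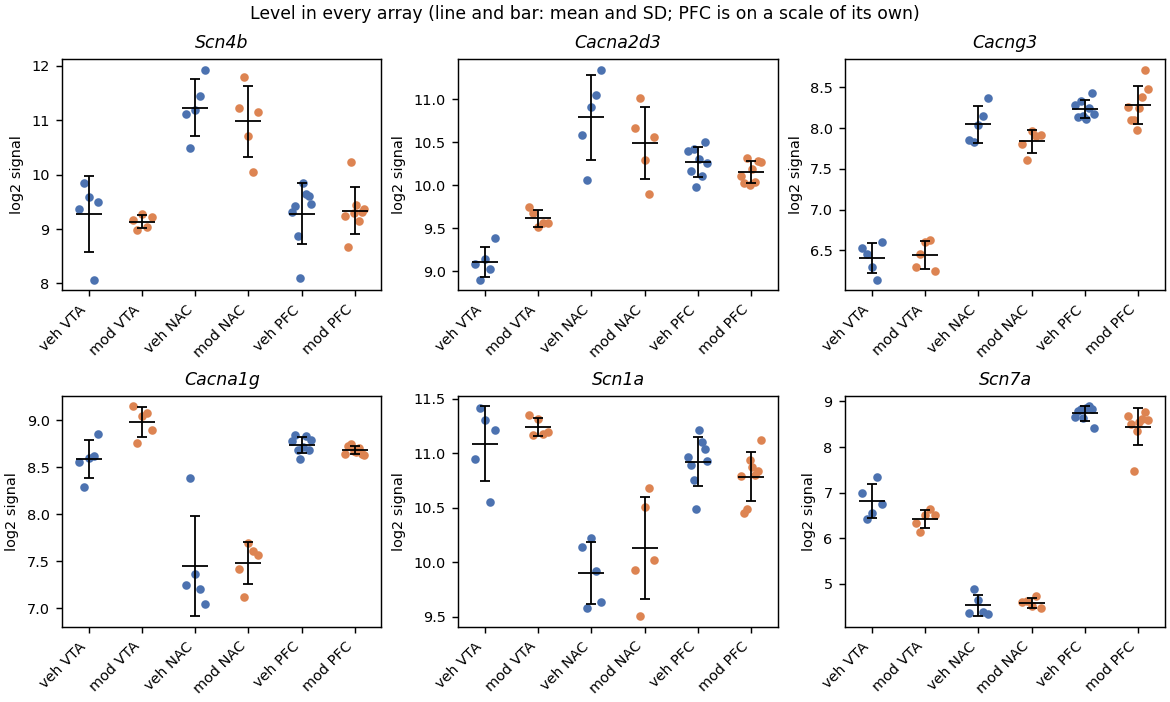
Log2 signal of 6 channel genes in every array of the 6 groups, points for arrays, with the mean and SD as a black line and bar (n = 5, 5, 5, 5, 8 and 8). In NAC, Scn4b, Cacna2d3 and Cacng3 lie above VTA and Cacna1g, Scn1a and Scn7a below it, with 1 vehicle NAC array of Cacna1g at 8.38 among the VTA values. PFC is on a scale of its own.

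Among the sodium channel genes, Scn4b, whose protein takes part in the resurgent sodium current, had the largest difference of the tested genes. It read 9.36, 9.84, 9.60, 8.07 and 9.50 in vehicle VTA and 11.11, 10.49, 11.20, 11.44 and 11.93 in vehicle NAC, 1.96 higher in NAC (SE 0.32, 3.88-fold, adjusted p = 0.000282). VTA array 4 lay far below the other 4, and it also had the lowest dopamine neuron (8.44) and inhibitory neuron (8.06) markers of its group. Its neighbour Scn2b was higher by only 0.30 (SE 0.083, adjusted p = 0.00943), with groups that overlapped at 10.61 to 10.88 and 10.87 to 11.28. Scn3b was higher by 0.42 (SE 0.12, adjusted p = 0.0114).

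Of the sodium channel pores, Scn1a, the gene of Dravet syndrome and prominent in fast-spiking inhibitory neurons, read 10.94, 11.42, 11.30, 10.55 and 11.21 in VTA and 10.13, 9.58, 10.22, 9.92 and 9.63 in NAC. It was lower in NAC without overlap (−1.19, SE 0.17, 2.28-fold, adjusted p = 9.76e-05), and its 2 other probe sets gave −0.81 and −0.68. Its neighbour across 3 coding genes, Scn2a, a main pore of excitatory and striatal neurons, was higher in NAC by 0.52 (SE 0.12, adjusted p = 0.00351), with all 4 probe sets between 0.43 and 0.61. Scn3a, an early developmental pore, and Scn8a, the main pore of the mature axon initial segment, differed by 0.11 (SE 0.19) and 0.07 (SE 0.10). A second probe set of Scn3a, below the filter, gave 1.03 (SE 0.095), so the probe sets of Scn3a disagree.

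Scn7a, an atypical pore that responds to sodium concentration rather than voltage, could not be tested because its mean was below the filter. Its arrays read 6.98, 6.42, 6.55, 7.35 and 6.75 in VTA and 4.37, 4.89, 4.64, 4.39 and 4.34 in NAC, a difference of −2.29 (SE 0.17), and a second probe set gave −2.35. Scn9a, beside it on the chromosome and best known from pain-sensing neurons, was at 6.50 to 8.12 in VTA and 6.30 to 7.34 in NAC, with a difference of 0.00 (SE 0.28). Over all probe sets of Scn9a, tested or not, the differences ran from −0.63 to 0.17.

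The modafinil arrays share no array with the vehicle comparison. In them 12 channel genes were higher and 3 lower in NAC of 29 tested (51.7%), where 43.8% of all tested probe sets were called, 24.4% higher and 19.4% lower. An unadjusted p below 0.05 was reached by 15 channel genes and by 51.4% of all, and the median difference was 0.18 against 0.025. Of the calls 13 were made in both comparisons, all in the same direction, which is 76.5% of the vehicle calls and 86.7% of the modafinil calls. The matching shares over all tested probe sets were not computed, so this overlap is not a result about the channel genes. Scn4b (1.84), Cacna1e (1.503), Cacng3 (1.40), Cacnb1 (1.34), Cacna1h (1.13), Cacna1g (−1.5003) and Scn1a (−1.11) were past the threshold again. Cacna2d3 was past it with a smaller value of 0.87 (SE 0.16, adjusted p = 0.000814), and Cacna1c was not, at 0.08 (adjusted p = 0.628). Scn3a (0.37, adjusted p = 0.0119) and Cacna2d4 (−0.44, adjusted p = 0.00351) were past it in the modafinil arrays. Cacna2d4 had means of 6.49 in VTA and 6.05 in NAC there, and it was below the filter in the comparison within NAC. Its call therefore rests on having passed the filter through the VTA arrays, where it was high. In the vehicle comparison it was below the filter, with an untested difference of 0.14, and its other probe sets, also untested, gave −0.52 and −0.12.

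Cell type markers differed between the regions along with these genes. In the vehicle comparison all 10 tested striatal neuron markers, 7 of 8 microglial and 4 of 7 cortical excitatory markers were higher in NAC, and 9 of 9 oligodendrocyte, 8 of 10 dopamine neuron, 6 of 8 astrocyte and 5 of 6 thalamic and midbrain excitatory markers were lower. Lower too were 6 of 7 endothelial and mural and 3 of 6 oligodendrocyte precursor markers. Of 7 inhibitory neuron markers 4 were higher and 1 lower, and both tested markers of cerebellar granule cells and muscle were higher. In a bulk punch, fewer cells of a type and less RNA per cell cannot be told apart, and the part of cell makeup in the channel differences was not tested. Within NAC the same arrays stood at the ends for some channel genes, given here as examples. How many other genes had this order was not counted. Modafinil array 4, vehicle array 2 and modafinil array 3 had the lowest striatal markers (10.46, 10.81 and 10.84) and the lowest Scn4b (10.05, 10.49 and 10.70), Cacna2d3 (9.90, 10.06 and 10.29) and Scn9a (6.15, 6.30 and 6.74). Vehicle array 5 and modafinil array 2 had the highest striatal markers (11.85 and 11.80), the highest Scn4b (11.93 and 11.79) and the lowest cortical markers (7.16 and 6.83). In Cacna2d3 vehicle array 4 (11.05) lay above modafinil array 2 (11.02).

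**Figure D2:**
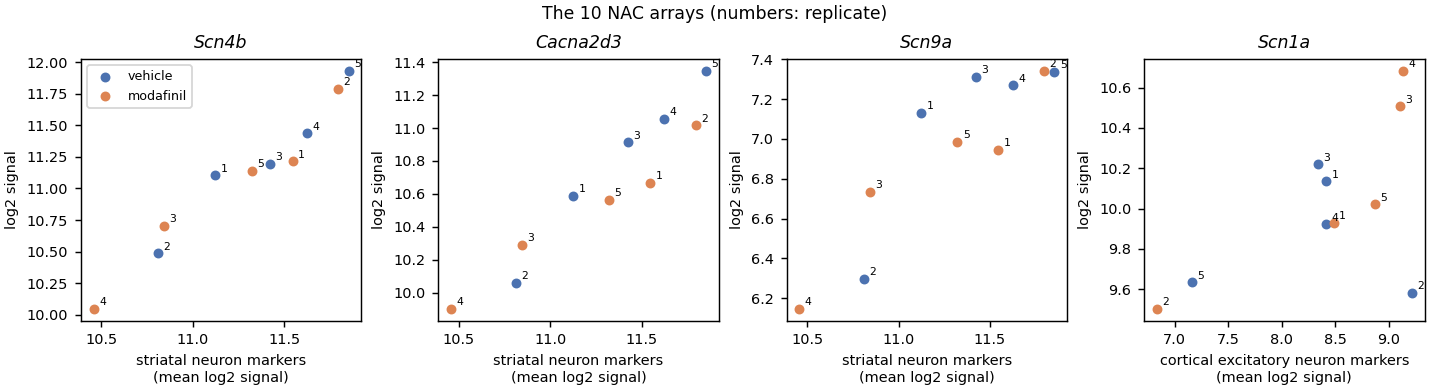
The 10 NAC arrays, each a numbered point, with the log2 signal of a channel gene on the y axis and the mean log2 signal of a marker list on the x axis. In Scn4b and Cacna2d3 the arrays with low striatal markers, such as modafinil array 4 at 10.46, are also lowest in the channel gene, while vehicle array 2, with the highest cortical markers, is at 9.58 in Scn1a and modafinil arrays 3 and 4, with cortical markers of 9.10 and 9.13, are at 10.51 and 10.68.

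Genes of partner proteins of the channels are set against the same background, where 28.7% of all tested probe sets were higher and 27.8% lower in vehicle NAC (56.5% called). Of 13 tested sodium channel partners, which anchor the channels at the axon initial segment or bind them inside the cell, 6 were higher and 4 lower in vehicle NAC (76.9% called). Of 18 tested calcium channel partners and regulators 10 were higher and 2 lower (66.7%). Akap5, which anchors kinases and calcineurin at L-type channels, was higher by 3.36 (SE 0.20, adjusted p = 8e-08). Camk4, a calmodulin-dependent kinase, and Rem2, a small GTPase that inhibits calcium channels, were higher by 2.17 and 2.10. Lower were Unc80 (−0.28), a subunit of the sodium leak channel, Fgf12 (−0.41), an intracellular FGF that binds sodium channels, and Stac (−0.38), an adaptor of calcium channels.

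Levels in PFC are given after all arrays were brought to one distribution by quantile normalization. The PFC RNA was made with another protocol, so region and protocol cannot be told apart in these levels. There, all 8 vehicle PFC arrays lay above every vehicle VTA and NAC array for 7 of the 35 genes, which also held for 7.16% of all probe sets, and below them for 1, Scn9a (6.82% of all). As deposited, 14 lay above and 1 below, where 45.3% and 1.15% of all probe sets did. The 7 were Cacna1b, Cacna1d, Cacna2d1, Cacng6, Scn7a, Scn8a and Scn10a, of which Cacng6 and Scn10a were below the filter in every comparison. Scn7a had the widest spread between regions, with normalized means of 8.46 in PFC, 7.03 in VTA and 4.71 in NAC. Scn9a, its neighbour, stood at 5.38 in PFC, 7.28 in VTA and 7.21 in NAC, and Scn4b at 9.02, 9.47 and 11.52, the order of PFC and VTA being within the spread of the arrays. Cacna2d1 stood at 11.68 in PFC, 10.75 in NAC and 10.33 in VTA.

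After modafinil 1 of 30 tested channel genes in VTA, the alpha2delta gene Cacna2d3, was higher and none lower (3.33%), where 0.259% of all tested probe sets were called, 0.189% higher and 0.0703% lower. The 4 alpha2delta genes each had an unadjusted p below 0.05, and so had 12 of the 30 channel genes and 21.1% of all tested probe sets. The vehicle and modafinil VTA arrays did not overlap for 3 of the 30 channel genes (10.0%), Cacna2d2, Cacna2d3 and Cacna2d4, and for 5.74% of all tested probe sets. Cacna2d4 lay close to the filter, with means of 5.92 in vehicle and 6.49 in modafinil arrays. It was tested in 9 of the 10 fits that each left out 1 VTA array. Its place in these counts therefore leans on the group where it was high. The median difference was 0.05 over the 30 genes and −0.047 over all tested probe sets, and the median size regardless of sign 0.18 and 0.10.

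Cacna2d3 read 9.09, 8.90, 9.14, 9.03 and 9.39 in vehicle VTA and 9.75, 9.68, 9.52, 9.56 and 9.56 in modafinil VTA. It was higher after modafinil by 0.51 (SE 0.087, 1.42-fold, adjusted p = 0.0462). The call was narrow: the adjusted p ranged from 0.0251 to 0.11 when single arrays were left out and stayed below 0.05 without vehicle array 5 or modafinil array 3 only, the differences lying between 0.45 and 0.58. It was 0.0734 with no filter on low values and 0.0691 with all 36 arrays in 1 fit. The gene has 1 probe set on the array.

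Cacna2d4, an alpha2delta gene prominent in the retina, read 5.93, 5.49, 6.09, 5.91 and 6.19 in vehicle and 6.88, 6.41, 6.42, 6.42 and 6.31 in modafinil VTA. Its difference of 0.57 (SE 0.13) missed the threshold (adjusted p = 0.0675), and a second tested probe set gave 0.33 (adjusted p = 0.102). Cacna2d2 ran the other way, at 9.83, 9.88, 9.63, 9.79 and 9.56 in vehicle and 9.22, 9.35, 9.52, 9.32 and 9.36 in modafinil VTA (−0.38, SE 0.079, adjusted p = 0.0534). Its other tested probe set gave 0.03 (adjusted p = 0.881), so the 2 probe sets disagree. Cacna2d1 differed by 0.30 (SE 0.13, adjusted p = 0.219).

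**Figure D3:**
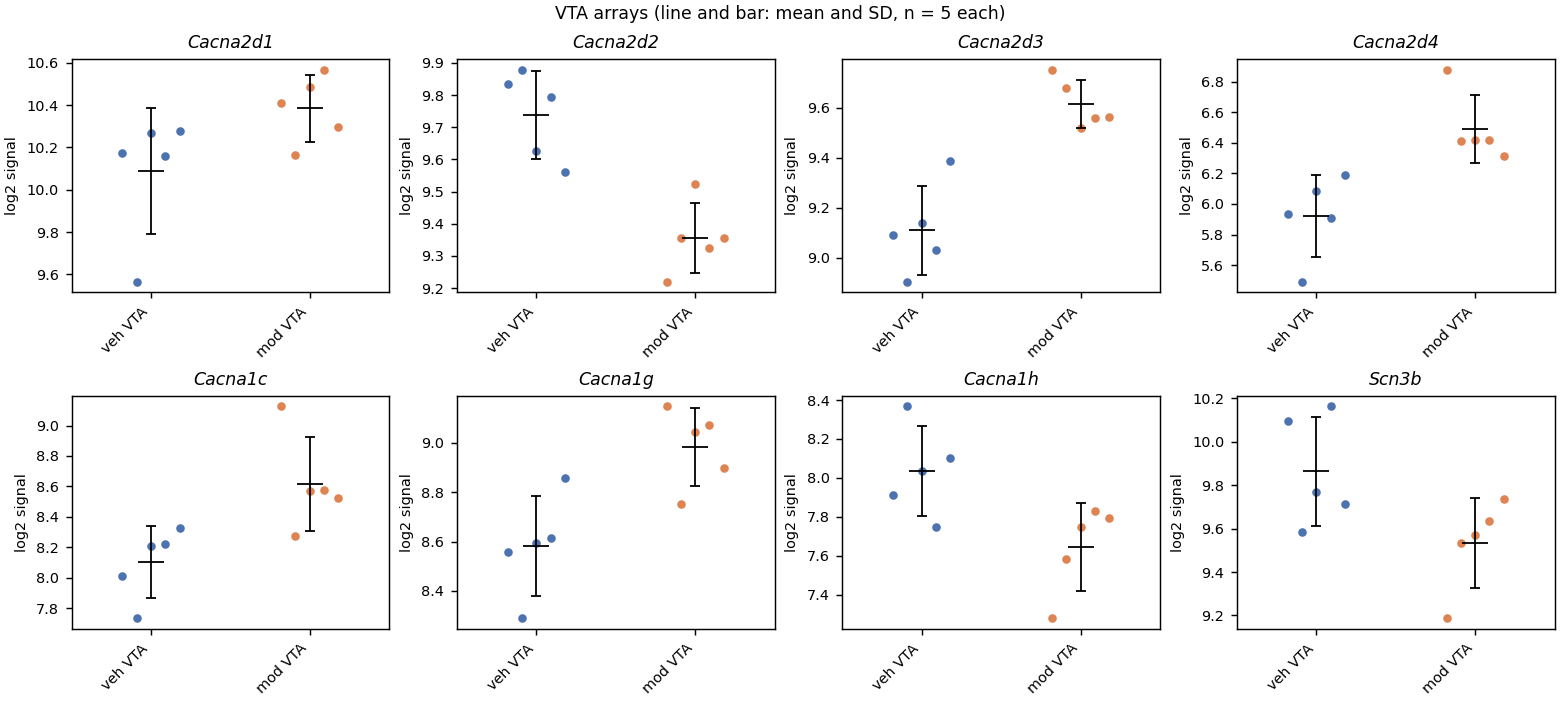
Log2 signal of the 4 alpha2delta genes and 4 further channel genes in each of the 10 VTA arrays, points for arrays, with the mean and SD as a black line and bar. The vehicle and modafinil arrays of Cacna2d2, Cacna2d3 and Cacna2d4 do not overlap, and Cacna2d3 alone is past the threshold.

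No other channel gene in VTA passed. Among the pores, the differences with the smallest p were 0.40 for Cacna1g (SE 0.10, adjusted p = 0.0804), 0.51 for Cacna1c (SE 0.15, adjusted p = 0.0995) and −0.39 for Cacna1h (SE 0.13, adjusted p = 0.131). Cacna1c read 8.01, 7.73, 8.21, 8.22 and 8.33 in vehicle and 9.13, 8.28, 8.57, 8.58 and 8.53 in modafinil VTA, overlapping by 1 array. Its adjusted p was 0.0207 when all 36 arrays shared 1 estimate of the spread, and 0.091 to 0.191 when single VTA arrays were left out. Its second probe set gave 0.25 (adjusted p = 0.341). Of the sodium channel genes, Scn3b differed by −0.33 (SE 0.13, adjusted p = 0.174) and Scn7a by −0.39 (SE 0.16, adjusted p = 0.193). Their second tested probe sets gave −0.06 (adjusted p = 0.804) and −0.58 (adjusted p = 0.0825). Cacng5, a gamma gene, differed by 0.52 (SE 0.18, adjusted p = 0.143), with modafinil array 1 highest at 9.52.

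No tested cell type marker passed the threshold in VTA, and 2 marker lists are given here with their values in each group. The mean of the dopamine neuron markers was 10.07, 9.27, 9.09, 8.44 and 8.78 in vehicle and 7.52, 8.04, 8.10, 7.85 and 8.94 in modafinil arrays. All 11 tested dopamine markers had negative differences, 10 with an unadjusted p below 0.05, against 21.1% of all tested probe sets. The dopamine transporter gene Slc6a3 differed by −1.84 (adjusted p = 0.103). The thalamic and midbrain excitatory markers did not overlap, at 8.65 to 9.59 in vehicle and 9.68 to 10.32 in modafinil arrays, with modafinil array 1, the highest in Cacna1c, Cacna1g, Cacna2d3 and Cacna2d4, also the highest in these markers. Of 8 tested markers of this list 7 had positive differences and 1, Calb2, a negative one (−0.46). An unadjusted p below 0.05 was reached by 6 of them, Calb2 included. With the dopamine marker level as a covariate the Cacna2d3 difference was 0.42 with an adjusted p of 0.513. No channel gene passed in that fit, nor did any other tested probe set. The marker level was itself mostly lower in the modafinil arrays, so the fit cannot separate it from treatment. The part of cell makeup in the Cacna2d3 difference was not tested.

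**Figure D4:**
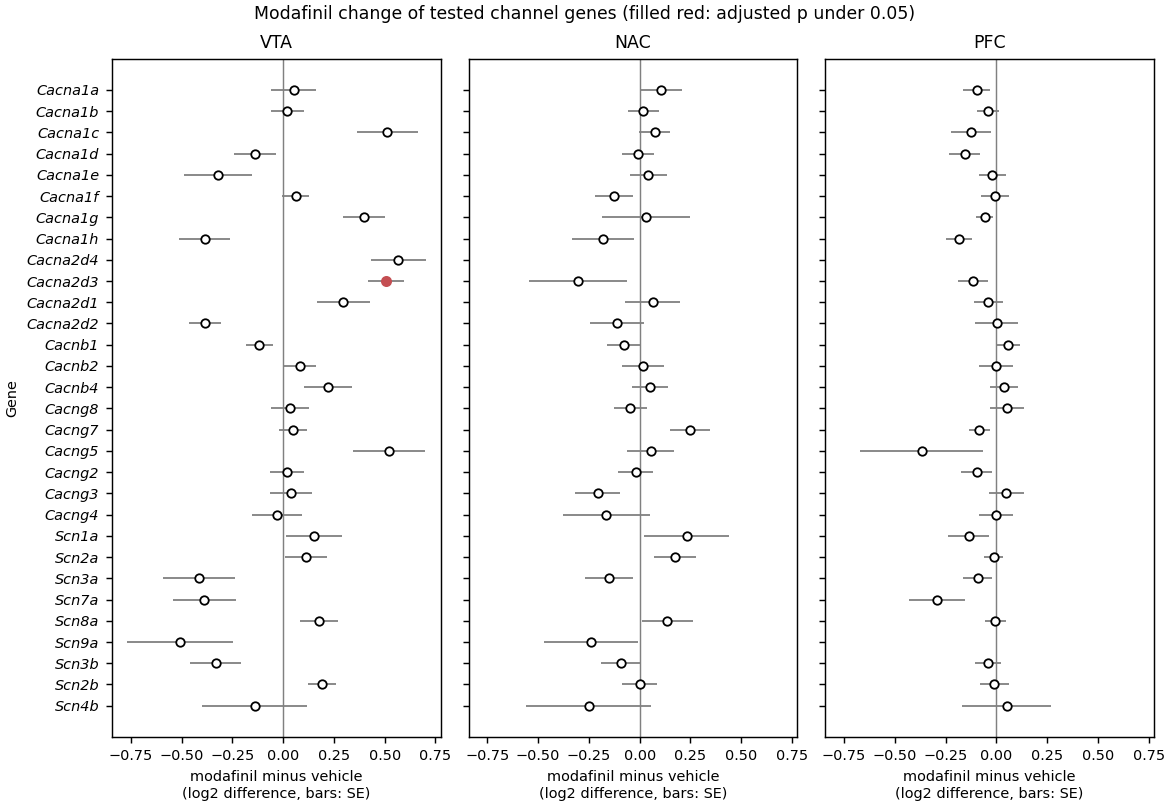
Modafinil minus vehicle log2 difference of each tested channel gene in VTA, NAC and PFC, with the SE of the limma fit as bars. Cacna2d3 in VTA, at 0.51, is the only filled point (adjusted p under 0.05). The VTA differences reach from −0.51 to 0.57, and those in PFC, from 8 arrays a group, are closer to zero for most genes.

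In NAC none of the 28 tested channel genes passed in limma, nor did any of the 27022 probe sets (0.0%). An unadjusted p below 0.05 was reached by 1 channel gene and by 3.23% of all tested probe sets. That gene was Cacng7, an AMPA receptor auxiliary subunit gene, at 8.18, 8.50, 8.38, 8.35 and 8.17 in vehicle and 8.54, 8.35, 8.75, 8.72 and 8.45 in modafinil arrays (0.25, SE 0.097, adjusted p = 1). Cacng3 differed by −0.21 (SE 0.11) and Scn2a by 0.17 (SE 0.10), which was 0.08 without vehicle array 1 (adjusted p = 1). Cacna2d3, the gene called in VTA, differed by −0.30 (SE 0.24), with vehicle arrays from 10.06 to 11.35 and modafinil arrays from 9.90 to 11.02, and by −0.49 without vehicle array 2 (adjusted p = 0.802).

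In PFC none of 28 passed either, where 0.0518% of all tested probe sets were called in limma, 0.0444% higher and 0.0074% lower. An unadjusted p below 0.05 was reached by 2 channel genes and by 11.8% of all tested probe sets. These were Cacna1h, at 8.67, 8.85 and 9.13 (lowest, median and highest of 8) in vehicle and 8.54, 8.67 and 8.85 in modafinil arrays (−0.18, SE 0.062, adjusted p = 0.322), and Scn7a (−0.29, SE 0.14, adjusted p = 0.422). Modafinil PFC array 3, the array with high striatal markers, read 7.48 in Scn7a, with the other 7 at or above 8.36, and without it the Scn7a difference was −0.15 (adjusted p = 0.418). Over the 28 tested channel genes 21 differences were negative and 7 positive, and the median over all tested probe sets was −0.028. The share of negative signs over all tested probe sets was not computed. All 8 tested alpha1 genes (−0.18 to −0.0058) and all 5 tested sodium alpha genes (−0.29 to −0.0042) had negative differences, none past the threshold. Other tested probe sets of Cacna1b (0.08), Scn2a (0.04) and Scn8a (0.006) had positive ones. Cacng5 had a wide vehicle group, with arrays 3 and 4 at 8.94 and 10.02, and both arrays had high astrocyte markers (11.28 and 11.42). The modafinil PFC arrays did not show this pairing. There array 3 was highest in Cacng5 (8.86) with astrocyte markers of 10.88. Arrays 2 and 5, with astrocyte markers of 11.21 and 11.09, read 7.69 and 7.70 in Cacng5. A link of Cacng5 with these markers was not tested.

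With the 3 regions in 1 model, none of 28 channel genes passed, where 0.84% of all tested probe sets were called in limma, 0.444% higher and 0.396% lower. An unadjusted p below 0.05 was reached by 5 channel genes and by 16.6% of all. Cacna1h came closest, at −0.24 (SE 0.065, adjusted p = 0.0677), with negative differences in VTA (−0.39), NAC (−0.18) and PFC (−0.18). A second probe set of Cacna1h, below the filter, gave −0.09 across the regions, with −0.21 in VTA, 0.01 in NAC and −0.09 in PFC. The fits that follow are of the first probe set. Without the 4 arrays that stood apart its adjusted p was 0.0401, without vehicle NAC array 2 alone 0.0144 and without modafinil NAC array 2 alone 0.0477, within a range of 0.0144 to 0.11 when single arrays were left out. Scn3a followed at −0.20 (SE 0.074, adjusted p = 0.179).

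Whether the modafinil difference itself differed between regions was tested by contrasts of the 6 group means. For PFC against VTA 1 of 28 channel genes passed, where 0.903% of all tested probe sets were called, 0.167% higher and 0.736% lower. An unadjusted p below 0.05 was reached by 7 channel genes and by 12.1% of all. The gene that passed was Cacna1c, with 0.51 in VTA and −0.12 in PFC, a difference of −0.64 (SE 0.16, adjusted p = 0.0485). In PFC its vehicle arrays read 8.83, 9.07 and 9.79 (lowest, median and highest) and the modafinil arrays 8.87, 9.01 and 9.10, the value of 9.79 being vehicle array 4. Without that array the difference was −0.54 (adjusted p = 0.037). The adjusted p was 0.161 without modafinil VTA array 1, 0.0541 without vehicle NAC array 1 and 0.056 without modafinil PFC array 3, and below 0.05 in 9 of the 36 fits that each left out 1 array, and the second probe set of the gene gave −0.40 (adjusted p = 0.265). In the same contrast 2 of 8 tested dopamine neuron markers passed as higher and 2 of 6 thalamic and midbrain excitatory markers as lower, and their part in the result was not tested.

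For Cacna2d3 the modafinil difference in NAC minus that in VTA was −0.81 (SE 0.23, adjusted p = 0.115), and that in PFC minus that in VTA was −0.62 (SE 0.20, adjusted p = 0.163). Neither passed, so the call in VTA was not shown to be particular to that region. Without the 4 arrays that stood apart, a choice made after seeing the data, both passed, at −1.12 (adjusted p = 0.00481) and −0.68 (adjusted p = 0.0343). So did Cacna1g for PFC against VTA (−0.49, adjusted p = 0.0344), named after its values were seen. The Cacna2d3 contrast of NAC with VTA also passed without vehicle NAC array 2 alone (adjusted p = 0.0111) and without modafinil NAC array 2 alone (adjusted p = 0.0376). With all arrays kept, it passed in limma only after quantile normalization (−0.95, adjusted p = 0.0376). For NAC against VTA none of 28 channel genes passed (0.274% of all called, 0.0296% higher and 0.244% lower) and 3 had an unadjusted p below 0.05, as had 11.2% of all, and for PFC against NAC none passed (0.0% of all) and 1 had, as had 4.91% of all: Cacng7 with −0.33 (SE 0.096).

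None of the sodium or calcium channel partners passed in a modafinil comparison within a region or over the 3 regions together. In NAC no partner had an unadjusted p below 0.05, in PFC 1 sodium channel partner had, and over the regions 3 calcium channel partners had. In VTA, 2 of 13 tested sodium channel partners and 8 of 18 tested calcium channel partners had an unadjusted p below 0.05 (15.4% and 44.4%), against 21.1% of all tested probe sets. The differences with the smallest p were 0.25 for Rims1, an active zone protein that binds calcium channels (SE 0.061, adjusted p = 0.0728), 0.79 for Camk2a (SE 0.20, adjusted p = 0.0753) and 0.38 for Ppp3ca, the catalytic subunit of calcineurin (adjusted p = 0.0875). For PFC against VTA the Camk2a difference was −0.81 (SE 0.18, adjusted p = 0.0213).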

How the data were processed

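The deposited values of the authors were used as they are, 45101 probe sets on each of 36 arrays. RMA made them, per the submitters' processing notes (version not given in the sources used here). The deposited values lie on a log2 scale. Leaving out 64 control probe sets, 34945 had 1 symbol, 932 several and 9160 none, by GEO's platform annotation, and 34741 were given a current symbol through the Entrez identifier. Raw intensities, scan dates and behaviour were not analysed here.

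The comparisons used limma 3.58.1 (R 4.3.3; lmFit, then eBayes), two-sided, on probe sets at or above the 40th percentile of the mean over the arrays compared, with Benjamini-Hochberg adjustment over all 27022 and a threshold of 0.05. A level in a marker list is the mean of its members in an array. The code was tested on simulated data. Tables were made with pandas 2.3.3.

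The genes, the marker and partner lists and the rule for named genes (up to 7 per direction past the threshold between regions, every called gene and up to 4 per direction by smallest p after modafinil, up to 2 in a contrast between regions, up to 3 partners per direction) were chosen with earlier results of these data known. Further genes are named by subfamily with their level or difference. Alternatives were another normalization, filters, trend and robust estimation, 1 probe set per gene, other probe sets, a replicate block, shared fits, a marker covariate and left-out arrays. The fits without the arrays that stood apart were chosen after seeing the data.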

Additional observations from a re-analysis of the deposited data

Results flagged for a closer look

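In groups of 5 or 8 arrays, 21 named channel genes gave 126 groups, and in 9 the highest or lowest array lay farther from its neighbour than Dixon's critical value allows. Chance gives this in about 1 of 20 groups. Vehicle PFC array 4 did so for 3 genes: it was highest in Cacna1c (9.79, next 9.23) and lowest in Scn2a (11.90, next 12.02) and Scn8a (11.36, next 11.58). Vehicle NAC array 2 was highest in Cacna1g (8.38, next 7.36), and vehicle NAC array 1 was lowest in Scn2a (10.99, next 11.41). Vehicle VTA array 4 was lowest in Scn4b (8.07, next 9.36), and modafinil VTA array 1 was highest in Cacna2d4 (6.88, next 6.42). Modafinil PFC array 3 was lowest in Scn7a (7.48, next 8.36), and modafinil PFC array 5 was lowest in Cacng8 (6.67, next 6.93).

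The modafinil difference of Cacna1c differed between PFC and VTA by −0.64, in a test of that difference (adjusted p = 0.0485 in limma).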

How the results depend on the processing

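Between regions the counts of channel genes past the threshold stayed within 1.5 times the reported ones under all alternatives run. They were 15 to 18 in vehicle and 14 to 17 in modafinil arrays when single arrays were left out. No regional difference named by the rule above changed direction in these fits or with another tested probe set. Probe sets of Cacna1h (−0.02) and Cacna2d2 (0.42) that were below the filter had the other sign in vehicle arrays. For modafinil in VTA the count of 1 became 0 with no filter, with the replicate block and with the dopamine covariate, and 2 with the filter at the 60th percentile, with trend and robust estimation and with 1 probe set per gene. It was 0 to 2 when single arrays were left out. Over all probe sets the VTA calls went from 70 to 0, 291, 241 and 262 (no filter, stricter filter, trend and robust estimation, quantile normalization) and to 940 with all 36 arrays in 1 fit, where the 1 channel gene called was Cacna1c (0.0207) and not Cacna2d3 (0.0691), and to 0 with the replicate block or the covariate. Over all probe sets, PFC calls went from 14 to between 0 and 52, those of the contrast of NAC with VTA from 74 to between 23 and 195, those of PFC with VTA from 244 to between 77 and 362, and those across the regions from 227 to between 140 and 313. Without the filter those between regions went from 15279 to 24512 in vehicle and from 11828 to 19423 in modafinil arrays. In NAC and PFC the count was 0 to 0 when single arrays were left out. Across the regions it became 1 with 1 probe set per gene and 1 without the arrays that stood apart, with 0 to 1 when single arrays were left out. The contrast of NAC with VTA gave 1 after quantile normalization and 1 without those arrays (0 to 1 with single arrays left out). That of PFC with VTA gave 0 with no filter, 0 with 1 probe set per gene and 3 without those arrays (0 to 2), and that of PFC with NAC 0 to 0. These causes were not tested.

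Signs turned with another probe set for Cacna2d2 in VTA (0.0279), Scn2a (−0.21) and Scn8a (−0.10) in NAC, Cacnb1 (−0.12) and Cacng8 (−0.18) in PFC and Scn2a across the regions (−0.0065 and −0.081). They turned for Cacng8 in PFC without the arrays that stood apart (−0.0065) and for Cacng3 in PFC without modafinil array 7 (−0.0134; −0.0134 to 0.0929 over the fits that each left out 1 PFC array). None of these was past the threshold in any of those fits.

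The numbers were not taken as pairs, since not every same-numbered pair's correlation was over 0.1: they ran from −0.176 to 0.198 (VTA), −0.518 to 0.156 (NAC) and −0.221 to 0.264 (PFC) between treatments, and between NAC and VTA from 0.016 to 0.249 in vehicle (1 of 5 over 0.1) and −0.001 to 0.252 in modafinil arrays (2 of 5). With the replicate block the adjusted p of Cacna2d3 in VTA was 0.0708, and 16 channel genes passed between regions in vehicle and 16 in modafinil arrays. With 5 arrays a group, a difference near the spread of the arrays cannot be called.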
